A study of Mus musculus with 6 samples.

Results

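The hairpins of miR-23, of miR-27 and of miR-24 sit together in 2 short stretches of the mouse genome, each holding 3 hairpins. Of the 1881 mouse miRNAs on the arrays, 5 were taken by name as their main products, namely mmu-miR-23a-3p, mmu-miR-23b-3p, mmu-miR-24-3p, mmu-miR-27a-3p and mmu-miR-27b-3p (written below without the species prefix), and all 5 were bright enough to be tested among 388. They were measured in tumours that grew from Hepa1-6 cells, a mouse hepatoma line, inoculated in the right flank of C57BL/6 mice as 0.1 ml of growing culture. The first group of 3 mice was treated with GLE, an abbreviation left unexplained in the labels, at a daily dose of 0.023 g calculated for 10 g of body weight. The model group, also of 3 mice, received 0.2 ml of 0.9% NaCl once a day for 28 days. The labels state an age of 28 days for all 6 samples. Cy3-labelled total RNA of each tumour was put on a separate array. All the mice carried a flank graft of 1 cell line, and the RNA came from whole tumour tissue, so the values describe a mixture of hepatoma cells and host cells. In such bulk tissue, fewer cells of a type and less RNA per cell cannot be told apart.

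A miRNA is cut from a hairpin and pairs with target mRNAs mainly through its seed, bases 2 to 8 counted from the 5′ end. The a cluster (miR-23a, miR-27a and miR-24-2) and the b cluster (miR-23b, miR-27b and miR-24-1) are each transcribed as 1 precursor, and the a and b copies of miR-23 and of miR-27 are near-identical in sequence. Both hairpins of miR-24 yield the same mature miR-24-3p. The family is known in endothelial cells, lymphocytes and fat cells. In human cells, miR-24 represses the cell cycle regulator E2F2 and MYC. miR-27a and miR-27b restrain fat cell differentiation, and miR-27b is a regulator of lipid metabolism genes in mouse liver.

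The mature sequences are shown for the seeds that members share and for the single base between the miR-27 copies. They are from RefSeq on GRCm38.p6, where 4 of the 5 members were matched by name and miR-23b-3p is named only. The capitals mark the seed.
miR-23a-3p: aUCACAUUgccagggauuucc
miR-27a-3p: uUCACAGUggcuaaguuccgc
miR-27b-3p: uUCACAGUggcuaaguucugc
miR-24-3p: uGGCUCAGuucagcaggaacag

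The mature miR-23a-3p lies at chr8:84208563-84208583, miR-27a-3p at chr8:84208727-84208747 and 1 copy of miR-24-3p at chr8:84208875-84208896, all on the plus strand. The 3 hairpins of this a cluster span 404 bases and overlap no protein-coding gene in the RefSeq table, which places Zswim4 next, 2021 bases to the right of Mir24-2. The b cluster spans 792 bases on the plus strand of chromosome 13 within the span of Aopep, an aminopeptidase gene, with miR-27b-3p at chr13:63300760-63300780 and the second copy of miR-24-3p at chr13:63301251-63301272. Whether those hairpins are intronic was not resolved by the table, which gives gene spans only. miR-27a-3p and miR-27b-3p share their seed and all but 1 of their 21 bases, the difference being C19U (from miR-27a-3p to miR-27b-3p, counted from the 5′ end). The seed of miR-24-3p recurs in miR-5124b, miR-6369, miR-6410 and miR-6413, and of these 4, 0 were bright enough to be tested.

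Each member was read by 2 probes that differ by 1 base in length. The probes of miR-27a-3p and miR-27b-3p pair with the 3′ part of the miRNA, and the longer ones, which pair with bases 5 to 21, are shown because a single letter separates them. The capital marks the base that faces position 19 of the miRNA.
miR-27a-3p probe: gcGgaacttagccactg
miR-27b-3p probe: gcAgaacttagccactg

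How far each probe also binds the other copy was not tested, so the a and b values are those of probes designed for each copy. On every array 12 to 15 spots per probe were used, and 100% of the spots of all 5 members were well above background. The spots of a probe had a median coefficient of variation of 2.41% (range 0.926% to 8.85%). A probe 1 base longer gave a mean of 2.93 against 1.24 for the shorter probe of the same miRNA, miR-23a-3p, in GLE tumours. Levels of different miRNAs were therefore not ranked.

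The arrays lay on 1 slide and were read in 1 scan. The array position codes in the headers have the same first number for all 3 GLE arrays and another for all 3 model arrays, so position on the slide and treatment cannot be told apart. The 75th percentile signal, by which each array was scaled, ran from 203 to 364 intensity units in GLE tumours and from 211 to 313 in model tumours. Nothing in the labels ties a replicate number of one group to the same number of the other. Of 2 listed hepatocyte miRNAs, miR-122-5p, the main miRNA of hepatocytes, was detected on 1 GLE array and 1 model array, and miR-192-5p was detected on all 6.

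The comparison of GLE with model tumours asks whether the treatment went with other levels of these miRNAs, and no difference was detected for any of the 5. All values below are log2 signals relative to the array's 75th percentile, and differences are GLE minus model ± SE from limma's fit over 388 miRNAs. The 5 differences ran from −0.18 to 0.066 (median −0.079), where those of all tested miRNAs had a median of 0.0078. At a Benjamini-Hochberg adjusted p of 0.05, limma called 0 of the 5, against 0 of all 388 (0%). At an unadjusted p under 0.05 there were also 0 of the 5, against 6 of 388 (1.55%). Without GLE replicate 2 it was 0 of the 5, against 109 of 399 (27.3%). In 0 of the 5 were the groups free of overlap, against 6.70% of all tested miRNAs. The difference was negative in 4 of 5 members, and in 49.0% of all tested miRNAs. The count of negative members was 5 with the percentile over all probes, 3 without scaling, 3 in the authors' deposited table, 2 without GLE replicate 3 and 3 without model replicate 1. The share of all tested miRNAs with a negative difference moved too, to 61.3% with the percentile over all probes (median difference −0.080), 35.1% without scaling (median 0.079) and 60.1% in the authors' deposited table (median −0.071). Leaving out GLE replicate 3 gave 50% and leaving out model replicate 1 gave 50.5%.

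**Figure D1:**
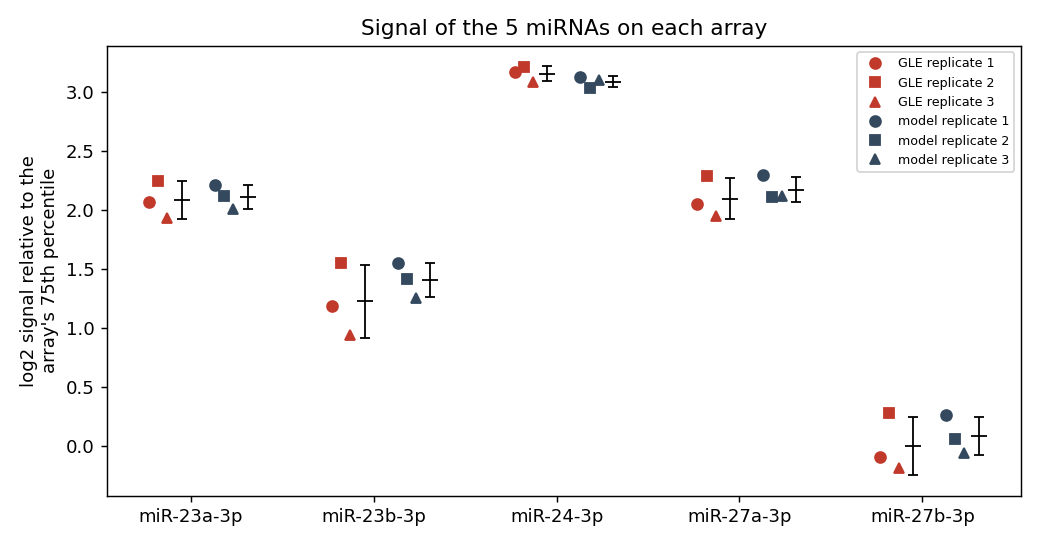
Log2 signal relative to the array's 75th percentile (y axis) for the 5 miRNAs (x axis), with GLE tumours in red left of model tumours in blue. Symbols are single mice, the black bar is the mean ± SD of 3 mice, and the 2 groups overlap in every miRNA. Heights of different miRNAs come from different probes and are not comparable.

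Values are given in the order of replicates 1, 2 and 3. The level of miR-23a-3p was 2.07, 2.25 and 1.93 for the GLE tumours, against 2.21, 2.12 and 2.00 for the model tumours. The highest and the lowest value both came from GLE tumours, and the model values lay between them. The difference was −0.027 ± 0.17, a 0.981-fold level with a 95% interval of 0.746 to 1.29 (limma adjusted p = 0.973). Its sign turned without scaling, in the authors' deposited table, and without GLE replicate 3 or model replicate 1.

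miR-23b-3p, the copy on chromosome 13, stood at 1.19, 1.55 and 0.94 in GLE tumours, against 1.55, 1.42 and 1.26 in model tumours. GLE replicates 1 and 3 lay below all model tumours and GLE replicate 2 lay at the top with model replicate 1. The largest difference among the 5 members belonged to this miRNA, at −0.18 ± 0.21, a 0.882-fold level with a 95% interval of 0.627 to 1.24 (limma adjusted p = 0.935). The difference stayed negative in all 18 alternatives tried and passed the threshold in 0 of them. Values ran from −0.34 (without GLE replicate 2) to −0.039 (without GLE replicate 3). By construction, a lowered floor, the other detection filters and the replicate block left the value unchanged, so their agreement adds no support.

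miR-27a-3p, the neighbour of miR-23a in the same precursor, stood at 2.05, 2.29 and 1.95 in GLE tumours, against 2.30, 2.11 and 2.12 in model tumours. GLE replicate 2 and model replicate 1 were the 2 high values, and the other GLE tumours lay below the model group. Its difference was −0.079 ± 0.17, a 0.947-fold level with a 95% interval of 0.716 to 1.25 (limma adjusted p = 0.950). The negative sign held in all 18 alternatives, with values from −0.18 (without GLE replicate 2) to −0.0040 (without scaling). Here too, the lowered floor, the other detection filters and the replicate block could not change the value.

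miR-27b-3p stood at −0.093, 0.28 and −0.19 in GLE tumours, against 0.26, 0.059 and −0.056 in model tumours. As with the other 3 members of the miR-23 and miR-27 groups, GLE replicate 2 and model replicate 1 were highest and GLE replicate 3 was lowest. The difference was −0.088 ± 0.19, a 0.941-fold level with a 95% interval of 0.685 to 1.29 (limma adjusted p = 0.950), and it turned to 0.0055 without GLE replicate 3.

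miR-24-3p, which both clusters produce, differed least between mice at this scaling. It stood at 3.17, 3.21 and 3.08 in GLE tumours, against 3.12, 3.03 and 3.10 in model tumours. The groups overlapped through GLE replicate 3, which lay between model tumours. The difference was 0.066 ± 0.15, a 1.05-fold level with a 95% interval of 0.819 to 1.34 (limma adjusted p = 0.950), and it turned to −0.022 with the percentile over all probes.

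**Figure D2:**
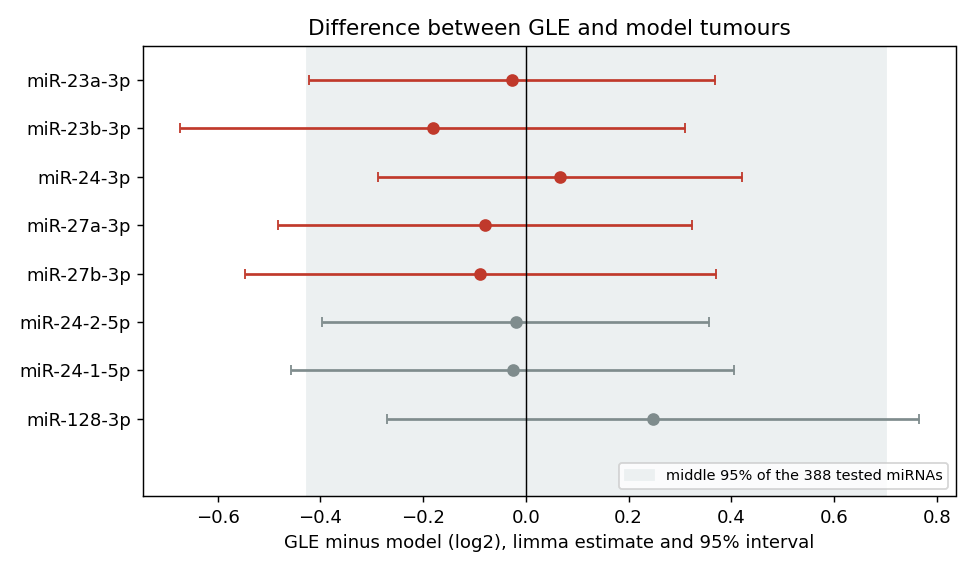
GLE minus model difference (x axis, log2) with its 95% interval from limma for the 5 miRNAs (red) and for 3 related miRNAs (grey). The grey band holds the middle 95% of the 388 tested miRNAs, from −0.43 to 0.70. Every interval crosses 0.

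The intervals give the precision of each difference at this scaling and are not adjusted for the number of miRNAs. They do not cover the choice of scaling or the position on the slide, so they do not bound a missed effect of treatment. For miR-24-3p the 95% interval ran from −0.29 to 0.42 on the log2 scale, and for miR-23b-3p from −0.67 to 0.31. Over all tested miRNAs the median interval reached 0.54 to either side of the difference. All 5 members had SEs below the median of 0.23 over all tested miRNAs.

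The spread between mice differed among the members. The SD of miR-24-3p was 0.064 in GLE tumours and 0.048 in model tumours, and the sum of both ranked 4 among 388 miRNAs counted from the smallest. The same sum ranked 53 for miR-23a-3p, 64 for miR-27a-3p, 134 for miR-27b-3p and 158 for miR-23b-3p. The steadiness of miR-24-3p depended on the scaling: its rank was 13 with quantile normalisation, 22 with the median of detected probes, 28 with normexp background, 56 with the percentile over all probes and 223 without scaling. The SD was larger in GLE than in model tumours for all 5 members, as it was for 76.5% of all tested miRNAs.

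**Figure D3:**
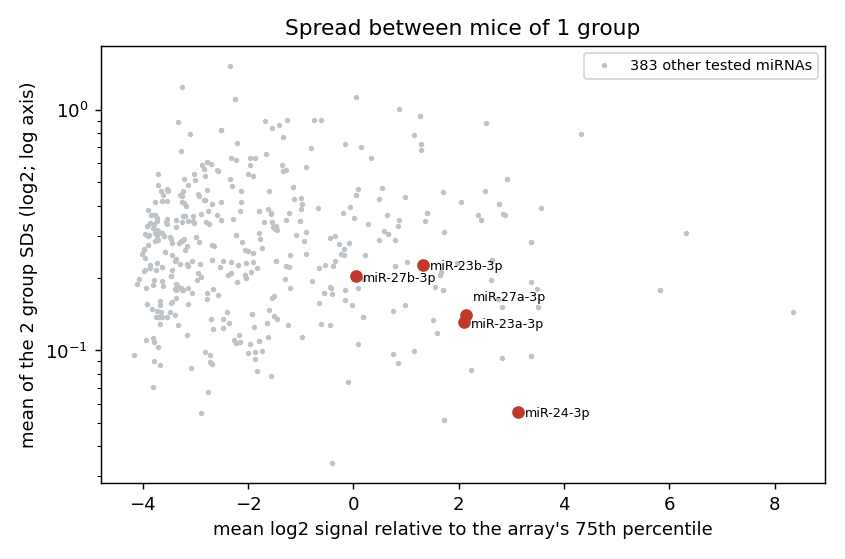
Mean of the 2 group SDs (y axis, log2 units on a log axis) against the mean log2 signal relative to the array's 75th percentile (x axis) for each tested miRNA. The 5 miRNAs are red, with miR-24-3p near the bottom, its SDs being 0.064 in GLE and 0.048 in model tumours, and the b copies above the a copies.

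The a and b copies of miR-23 and miR-27 were then compared within each array, where a scaling factor cancels. For miR-23, the a value exceeded the b value by 0.88, 0.70 and 0.99 in GLE tumours, against 0.66, 0.70 and 0.75 in model tumours. GLE replicates 1 and 3 lay above all model tumours, and GLE replicate 2 lay within their range. The mean was 0.86 ± 0.15 for GLE and 0.70 ± 0.042 for model tumours (SD, n = 3 each), a difference of 0.15 or 1.11-fold. The two-sided exact permutation p was 0.2 (adjusted p = 0.4 over the 2 pairs compared), in a design whose smallest possible p of 0.1 cannot reach 0.05. Leaving out GLE replicate 3 gave 0.086, and leaving out GLE replicate 2 gave 0.23.

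For miR-27, the a value exceeded the b value by 2.14, 2.01 and 2.14 in GLE tumours, against 2.04, 2.05 and 2.17 in model tumours. The groups overlapped throughout, with means of 2.09 ± 0.076 and 2.09 ± 0.075 (SD, n = 3 each) in GLE and model tumours. The difference was 0.0092 (two-sided exact permutation p = 1, smallest possible 0.1). Read with the 17-base probes shown above it was 0.021, and with the 16-base probes −0.0027. The sizes of the offsets between a and b are properties of the probes as well as of the miRNAs, so no copy is called more abundant.

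**Figure D4:**
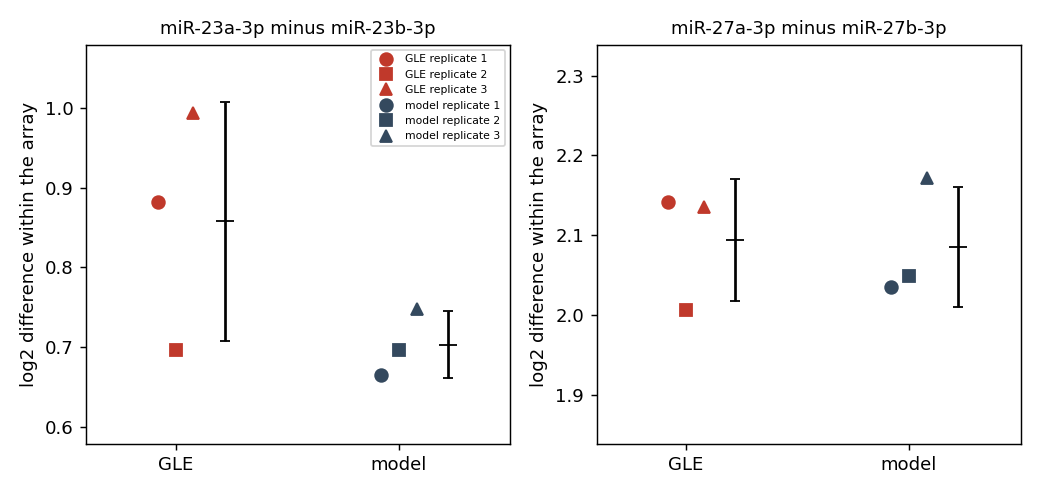
Log2 difference between the a and the b copy on each array (y axis) for miR-23 (left panel) and miR-27 (right panel), GLE tumours left of model tumours. Symbols are single mice, bars are means ± SD of 3 mice, and both panels cover the same range of 0.5 log2 units.

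The b copies varied more over the 6 arrays than the a copies. The SD over all arrays was 0.24 for miR-23b-3p and 0.12 for miR-23a-3p, and 0.19 for miR-27b-3p and 0.14 for miR-27a-3p. Both b copies had the larger SD in 17 of the 18 alternatives. With normexp background this did not hold for miR-27. The lowered floor, the other detection filters and the replicate block leave these SDs unchanged by construction. The runs with an array left out reuse the same arrays, so the count is not independent support. Averaged over miR-23 and miR-27, the b cluster stood at 0.55, 0.92 and 0.38 in GLE tumours, against 0.90, 0.74 and 0.60 in model tumours. The a cluster average was 2.06, 2.27 and 1.94 in GLE tumours, against 2.25, 2.11 and 2.06 in model tumours. Both averages placed GLE replicate 2 highest, model replicate 1 next and GLE replicate 3 lowest.

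The other strands of the 6 hairpins were looked at as well, since those of the 2 miR-24 hairpins differ in sequence where miR-24-3p does not. They share their first 16 bases, and the capitals mark the rest.
miR-24-2-5p: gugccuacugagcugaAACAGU
miR-24-1-5p: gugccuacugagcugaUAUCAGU

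Of the 6 other strands, 2 were tested, namely these, and the other 4 (miR-23a-5p, miR-23b-5p, miR-27a-5p and miR-27b-5p) were detected on 0 arrays. miR-24-2-5p, from the a cluster, stood at −3.70, −3.60 and −3.83 in GLE tumours, against −3.61, −3.78 and −3.67 in model tumours. miR-24-1-5p, from the b cluster, stood at −3.84, −3.57 and −4.07 in GLE tumours, against −3.75, −3.85 and −3.81 in model tumours. GLE replicate 2 was highest and GLE replicate 3 lowest in both. The differences were −0.020 ± 0.16 and −0.025 ± 0.18 (limma adjusted p = 0.973 for each), and neither passed. Both strands lay close to the floor of −4.25, and miR-24-1-5p was detected on 2 GLE and 3 model arrays. It thus entered the test through the model group alone, so its difference is not independent of the detection filter. Within each array, miR-24-2-5p minus miR-24-1-5p was 0.14, −0.023 and 0.24 in GLE tumours and 0.14, 0.067 and 0.13 in model tumours, so the ranges overlapped. Binding of each strand's probes to the other strand was not tested. miR-128-3p, whose seed overlaps that of miR-27 shifted along by 1 base, differed by 0.25 ± 0.22 (limma adjusted p = 0.935).

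Across the 6 tumours, the 4 members of the miR-23 and miR-27 groups moved together. Pearson's r between them was 0.92 to 0.97 over 6 pairs (exact permutation p = 0.00139 to 0.0167, adjusted p = 0.0208 to 0.0417 over the 15 relations computed). These pairs include the a and b copies of 1 miRNA, and how far each probe also binds the other copy was not tested. Spearman's rho was 0.77 to 1.00 (exact permutation p = 0.00278 to 0.103, adjusted p = 0.0417 to 0.257). Without the 2 arrays farthest from the median, r was 0.79 to 0.97. Strong correlations with the member mean, of either sign, were also seen outside the clusters. Pairwise r was not computed for other miRNAs, so whether moving together is particular to these miRNAs was not tested. Over 380 miRNAs outside the clusters, r with the mean of the 5 members had 5th and 95th percentiles of −0.94 and 0.91. The relation of miR-24-3p to the other 4 was weaker, at r = 0.30 to 0.50 (exact permutation p = 0.326 to 0.561, adjusted p = 0.405 to 0.561) and rho = 0.43 to 0.54 (exact permutation p = 0.297 to 0.419), and r was −0.40 to 0.24 without 2 such arrays. That contrast also depended on scaling: r of miR-24-3p with the others was 0.62 to 0.80 with normexp background, 0.84 to 0.89 with the median of detected probes, 0.86 to 0.92 with the percentile over all probes and 0.93 to 0.98 without scaling. Among the other 4 it fell as low as 0.46 with quantile normalisation and 0.16 in the authors' deposited table. The arrays with the brightest 75th percentile, GLE replicate 2 and model replicate 1, were also the highest for the 4. The members' r with that signal was 0.50 to 0.85 (exact permutation p = 0.0431 to 0.313, adjusted p = 0.0923 to 0.405; rho = 0.26 to 0.66, exact permutation p = 0.175 to 0.658). It was −0.77 to −0.13 without the 2 arrays farthest from the median, so the relation rests on those arrays. Each member value was itself scaled by that signal, so the 2 are tied by construction and these p-values cannot show a separate relation. All members share that scaling, and its part in the r between members was not tested.

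The tested miRNAs outside the clusters with the highest Pearson's r to the mean of the 5 members over the 6 arrays were miR-200a-5p, miR-30e-5p, miR-200a-3p, miR-200b-3p and miR-429-3p, at r = 0.96 to 0.98. Over the 380 miRNAs compared, r had a median of −0.45 and quartiles of −0.76 and 0.44. The 5th and 95th percentiles were −0.94 and 0.91. These values are a description without a test. The values of miR-200a-5p reached the floor of −4.25 in GLE replicate 3 and were near it, at −4.06, in GLE replicate 1. Of the 5, 4 belong to the miR-200 family, known for its presence in epithelial cells, and miR-200b-3p ranged much more widely than the members. It stood at 0.90, 2.37 and −0.41 in GLE tumours, against 2.05, 1.63 and 1.06 in model tumours, with GLE replicate 2 highest and GLE replicate 3 lowest. In the opposite order, the 4 blood lineage miRNAs (miR-142a-3p, miR-150-5p, miR-223-3p and miR-342-3p) had r = −0.87 to −0.77 with the member mean over the same 6 arrays. Their mean ranged from −0.46 to 1.16 in GLE tumours and from −0.68 to −0.021 in model tumours, highest in GLE replicate 3. The 3 mesenchymal miRNAs had r = −0.86 to −0.82, and their mean ranged from −2.08 to −0.41 in GLE tumours and from −2.26 to −1.56 in model tumours. Of 2 endothelial miRNAs, miR-126a-3p was tested and had r = −0.53, with values from 1.52 to 2.00 in GLE tumours and from 1.20 to 1.44 in model tumours. The 3 muscle miRNAs had weaker r with the member mean, from −0.46 to −0.26. Their mean ranged from −2.002 to −0.39 in GLE tumours and from −2.60 to −1.38 in model tumours. Of 2 erythroid miRNAs, miR-451a was tested and had r = 0.091. It ranged from 1.45 to 3.36 in GLE tumours and from 1.98 to 3.55 in model tumours. The hepatocyte miRNA miR-192-5p had r = 0.87 with the member mean. It stood at −3.01, 0.26 and −3.46 in GLE tumours, against −1.64, −2.51 and −3.69 in model tumours, with GLE replicate 2 highest. The part of these cell types in the member values was not tested.

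**Figure D5:**
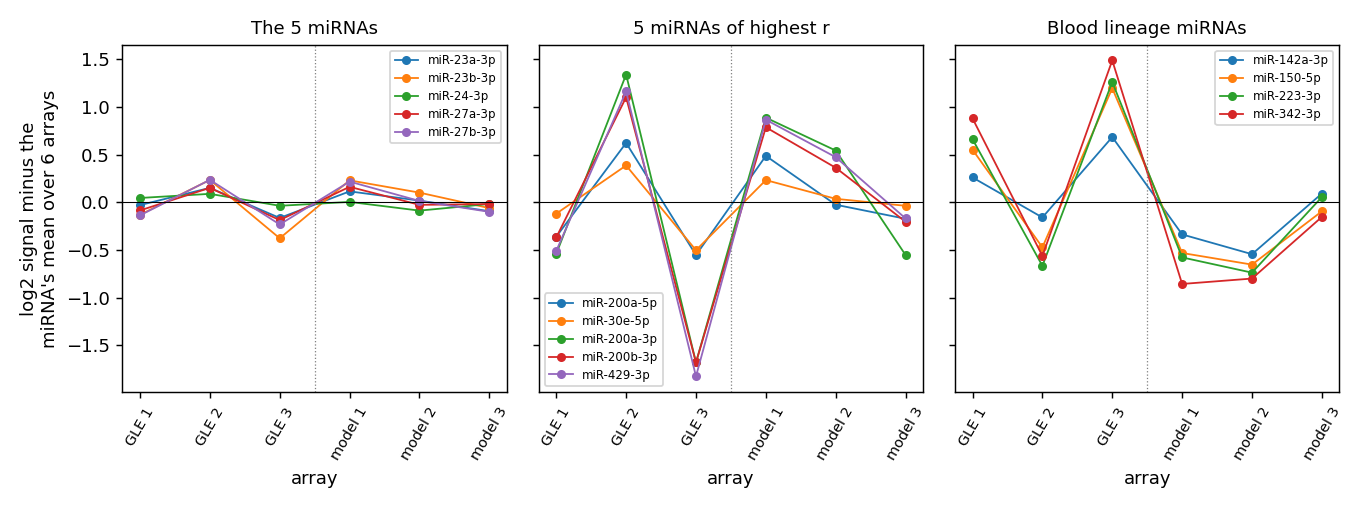
Log2 signal minus the miRNA's own mean over 6 arrays (y axis) on each array (x axis, GLE tumours left of model tumours) for the 5 miRNAs, the 5 miRNAs of highest r to their mean, and the 4 blood lineage miRNAs. Lines join the values of 1 miRNA and imply no order of the arrays; GLE replicate 2 is high and GLE replicate 3 low in the first 2 panels, with miR-24-3p nearly flat.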

How the data were processed

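Tumour miRNA of 6 mice, 3 per group, was measured on 1-colour Agilent arrays. Per the file headers, Agilent Feature Extraction 10.7.1.1 corrected each spot for background and for a spatial trend. The deposited spot values are linear intensity, with no scaling between arrays, with flags (an other unit, 0 or 1 per spot) that the authors deposited beside them. The authors also deposited log2 values per miRNA, and the steps behind them are not given in the sources used here. Their column medians were −3.20, −3.32 and −3.27 in GLE and −3.32, −3.17 and −3.13 in model replicates 1 to 3, equal to each column's lowest value. They followed the scanner values in rank (Spearman 0.96 to 0.97). Their centring stays unknown, and as single-array columns they carry no direction. They served as an alternative only.

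In R 4.3.3 with limma 3.58.1, processed signals of a probe's spots without outlier flags were averaged. Signals were scaled to the array's 75th percentile among the 636 probes that every array detected (over a share of 0.5 of spots well above background), put on the log2 scale and floored at −4.25. Probes detected throughout at least 1 group were averaged for each miRNA, which left 388 of 1881 miRNAs. Groups were compared with lmFit and eBayes (two-sided, threshold 0.05, Benjamini-Hochberg over 388), and the 2 pairs of copies with exact permutation over 20 relabelings. Relations over arrays used all 720 pairings, with adjustment over 15. The test was tried on simulated data. Named miRNAs were the 5 members, the other strands of their hairpins, miRNAs sharing a seed, miR-128-3p, marker lists, and the 5 miRNAs of highest r to the member mean. The members and lists were chosen with earlier results of these data known. Replicates are separate mice per the labels; the number of arrays limits the precision.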

Additional observations from a re-analysis of the deposited data

How the results depend on the processing

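Over 18 alternatives, 0 miRNAs passed in any (limma, smallest adjusted p = 0.0621, without GLE replicate 2, where 109 miRNAs had an unadjusted p under 0.05). None of the 5 members passed in any. The 2 pair differences could not pass, since their smallest possible exact p was 0.1, or 0.25 with the block. With all arrays kept, the sign turned for miR-24-3p with the percentile over all probes (−0.022). It turned for miR-23a-3p without scaling (0.048) and in the authors' deposited table (0.038). Without scaling it also turned for miR-24-1-5p (0.050) and miR-24-2-5p (0.055), and miR-24-2-5p stood at 0.011 with no detection filter. For miR-24-1-5p the filter on probes detected on all arrays gave no value. The causes were not tested. With each array left out in turn, the count of calls was 0 each time, miR-23a-3p ran from −0.11 to 0.048, miR-23b-3p from −0.34 to −0.039, miR-24-3p from 0.038 to 0.10, miR-27a-3p from −0.18 to −0.0059 and miR-27b-3p from −0.23 to 0.0055. miR-24-1-5p ran from −0.15 to 0.095 and miR-24-2-5p from −0.076 to 0.043. The difference of miR-23a-3p minus miR-23b-3p ran from 0.086 to 0.23, and that of miR-27a-3p minus miR-27b-3p from −0.016 to 0.053.

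With the replicate number as a block, 0 miRNAs passed (smallest adjusted p = 0.887, 17 at an unadjusted p under 0.05), and the pair difference of miR-23 stayed at 0.15 (exact sign-flip permutation p = 0.25, the smallest possible). The numbers were not taken as pairs, since nothing in the labels ties them across groups. Correlations of same-numbered arrays across miRNAs, as deviations from each group's mean, were −0.62, −0.18 and 0.37 for numbers 1, 2 and 3. Between arrays of different numbers they ran from −0.50 (GLE replicate 2 with model replicate 3) to 0.66 (GLE replicate 2 with model replicate 1). Same-numbered arrays do share the second number of the position code in the headers. Deviations from a mean of 3 arrays depend on each other, so these correlations cannot decide whether the numbers are pairs or whether that position had an effect. The slide as a block was not run, since there was 1 slide.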

Other observations

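In the authors' deposited table, miR-23a-3p exceeded miR-23b-3p by 0.93, 0.83 and 0.95 on the log2 scale in GLE tumours and by 0.54, 0.69 and 0.77 in model tumours. There the groups did not overlap, with a difference of 0.24 (two-sided exact permutation p = 0.1, the smallest possible), where GLE replicate 2 lay within the model range in the scanner values. In the authors' deposited table miR-24-3p is listed at the same value, 10.27, on 4 of the 6 arrays.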
